A study of Mus musculus with 8 samples.

Results

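Golgi glycosyltransferases are the enzymes that add sugars, one at a time, to proteins and lipids on their way to the cell surface. The genes described here are the 64 genes on the array whose symbol begins with St3gal, St6gal, St8sia, B3galt, B3gnt, B4galt, Galnt, Gcnt or Mgat, or with Fut and a digit. They were chosen by name from 12393 genes that could be named from a probe set. The rule used no measured value, but earlier results of these data were known when it was set. They were read by 106 probe sets, groups of short probes against 1 transcript. Expression was compared between erythroid precursors and epithelial cells taken by laser capture microdissection from frozen sections of the yolk sac of FVB/N mice at embryonic day 9.5, with 4 samples of each cell type in 4 pairs. The mice were untreated, and no genotype other than the strain is given in the labels. The 2 samples of a pair came from the same slides, and each replicate pooled 2 to 4 yolk sacs from 2 litters, so a value describes a pool of animals. About 2 to 3 laser pulses were used for each erythroid cell and 1 for each epithelial cell. In such captures, fewer cells of a type and less RNA per cell cannot be told apart.

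As background, a protein that passes through the endoplasmic reticulum and the Golgi carries N-glycans, which the Mgat enzymes branch, and mucin-type O-glycans, which the Galnt enzymes start. The B4galt, B3galt, B3gnt and Gcnt enzymes lengthen and branch the chains, and the sialyltransferases (St3gal, St6gal, St6galnac and St8sia) and fucosyltransferases (Fut) add the end sugars. Red cells carry a surface rich in sialic acid, and the visceral endoderm, the epithelium of the yolk sac, secretes serum glycoproteins and takes up others through glycosylated receptors.

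The captures followed their labels. The red cell transcription factor Klf1 averaged 2571 in the erythroid and 413 in the epithelial group (limma adjusted p = 0.00133), and the anion exchanger Slc4a1 10602 and 2674 (0.00266). The endoderm genes Apoa1 (10701 and 24449) and Cubn (4292 and 10422) were lower in the erythroid group (adjusted p = 0.00102 for both). Of the lists of markers, 8 of 8 red cell genes were higher and 10 of 10 visceral endoderm genes lower in the erythroid captures. The lists, which include the genes above, were chosen with earlier results of these data known. They are therefore no independent check of the labels. Markers of the other cell type were also read, with 7 of the 8 red cell markers above background on all epithelial arrays. Of the 10 endoderm markers, 9 were above background on all erythroid arrays. Whether this came from cells of the other type in a capture was not tested. Gapdh control probes at the 3' end exceeded those at the 5' end by 38.7 to 44.4 times in pairs 1 and 2 but by 7.0 to 17.4 times in pairs 3 and 4, and a high ratio goes with shorter RNA. Both sets of pairs are therefore given separately where they differ. In pairs 1 to 4 the Gapdh ratio was 44.4, 38.7, 17.4 and 7.0 in erythroid and 39.7, 39.0, 8.2 and 7.7 in epithelial captures. A like control, Actb, gave 46.5, 63.1, 13.5 and 12.5 in erythroid and 131, 76.5, 11.3 and 7.7 in epithelial captures. The ratio thus also differed within some pairs, and its part in the differences between cell types was not tested. Median signals of the arrays ran from 81.6 to 127, and the number of arrays limits the precision.

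Sialyltransferase genes St3gal6 and St8sia4 were higher in the erythroid captures, and 4 genes of chain start, extension and branching, Galnt3, Galnt11, B3gnt2 and Gcnt2, were lower. St3gal6 differed 4.8-fold and the other 5 between 1.77-fold and 2.33-fold. The test was a paired fit over all 11449 probe sets bright enough to be tested (limma, Benjamini-Hochberg threshold 0.05), on quantile-normalised log2 values. Differences are erythroid minus epithelial on that log2 scale, with the standard error (SE) of the fit over 4 pairs. Of the 64 genes, 29 had a tested probe set and 35 had none. Among the 29, 2 genes were higher, 4 were lower and 23 did not pass, or 20.7% called. The background share over all 7191 genes tested was 14.9% (6.02% higher and 8.87% lower), so the count of calls alone sets these genes little apart from the rest. At the level of probe sets, 3 of 35 were higher and 4 lower (20.0%), beside 13.9% of all probe sets (6.19% higher and 7.69% lower). Of the 29 genes, 12 had 1 sign in all 4 pairs (41.4%; 38.2% of all genes tested). Signals of the erythroid and epithelial captures did not overlap for 5 of the 29, St3gal6, St3gal5, Galnt3, Galnt11 and Gcnt2 (17.2%; 13.7% of all genes tested). The median difference over the 29 was -0.24, against -0.01 over all genes tested.

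The call of St3gal6 held under every alternative tried, and those of the other 5 genes did not: without the pair term in the fit, St3gal6 was called higher and Galnt3 lower, with no other gene called, and without replicate 4 St3gal6 was the only gene called. Without replicate 3 the calls were again those of St3gal6 and Galnt3.

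**Figure D1:**
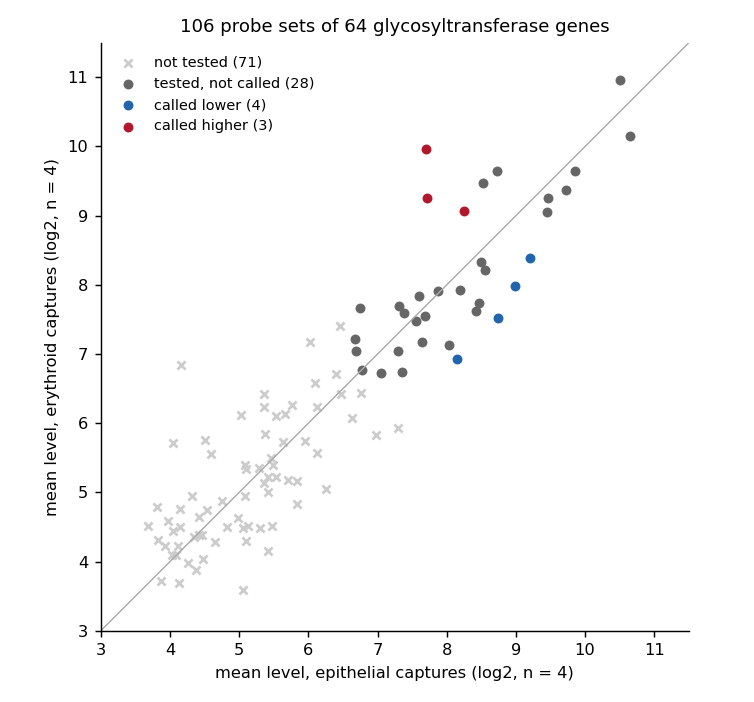
Mean level of each of the 106 probe sets in the epithelial captures (horizontal axis) and the erythroid captures (vertical axis), as means of 4 quantile-normalised log2 values, with the diagonal of equal level. Most of the 71 probe sets not tested (crosses) lie at the dim end, and the 3 called higher (red) and 4 called lower (blue) lie off the diagonal among the brighter ones.

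Split by the sugar they add, the median differences of the sialyltransferases and of the other enzymes lay on different sides of 0. Of 10 tested sialyltransferase genes, 2 were called higher and 0 lower, 6 had values above 0, and their median was 0.59 (at an unadjusted p under 0.05, 4 were higher and 1 was lower). Of the 19 genes of all other roles, 0 were called higher and 4 lower, 16 had values below 0, and their median was -0.35 (at an unadjusted p under 0.05, 1 was higher and 7 were lower). Among these other roles, the median of the 2 tested fucosyltransferase genes was 0.18, and the medians of the remaining roles lay below 0. Over all 7191 genes tested, 3568 had values above 0 and 3623 below. Of all genes tested, 14.3% were higher and 16.8% lower at that unadjusted p. No test of that split was made. Over pairs 1 and 2 together the sialyltransferase median was 0.03, over pairs 3 and 4 it was 0.66, and it was -0.14, with 3 of 7 genes above 0, when probe sets of kinds that can match several transcripts were left out. The median over all other roles together stayed below 0 under every alternative, between -0.46 and -0.23.

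**Figure D2:**
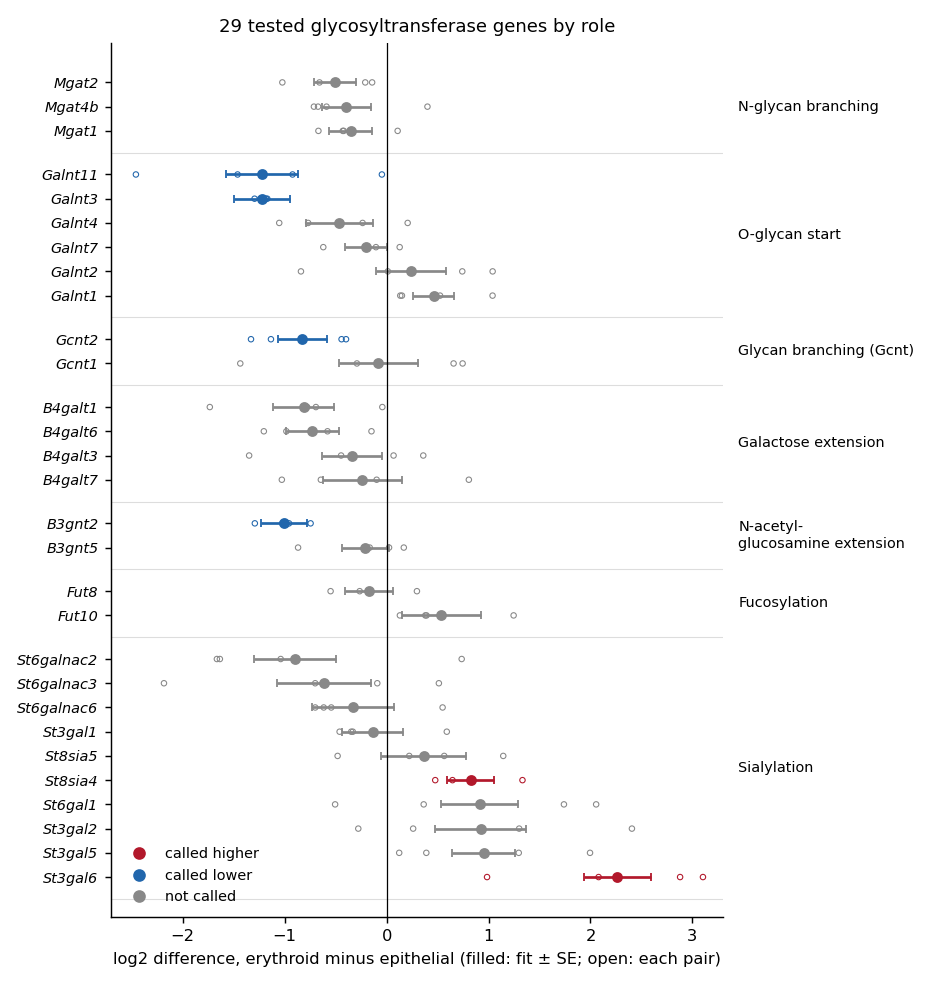
Log2 difference, erythroid minus epithelial, of the 29 tested genes, ordered by role. Filled points and bars are the fitted value ± SE over 4 pairs and open points the 4 pairs. St3gal6 stands at 2.26 at the bottom, and all 7 genes of N-glycan branching and galactose extension lie below 0.

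St3gal6, which adds sialic acid to the galactose at the end of lactosamine chains, gave the clearest difference. Its signal in the erythroid captures of pairs 1 to 4 was 671, 1117, 1369 and 917, and in the epithelial captures 302, 174, 145 and 177. Every erythroid capture lay above every epithelial one, and pair 1 was the closest. The difference was 2.26 ± 0.33 (SE, n = 4 pairs, limma adjusted p = 0.00254), higher in 4 of 4 pairs, with means of 1.93 over pairs 1 and 2 and 2.59 over pairs 3 and 4. A further probe set of the gene, which can match related transcripts, gave 586, 496, 779 and 594 against 312, 266, 78.4 and 187. Again the groups did not overlap, and the difference was 1.55 ± 0.34 (adjusted p = 0.0149). Over all alternatives the value for the gene ran from 1.90 to 2.69, and its adjusted p was at most 0.0401. With 1 pair left out in turn the adjusted p ran from 0.00121 to 0.0198.

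St8sia4, which builds polysialic acid, a long chain known from the neural cell adhesion molecule, was also higher. Its erythroid signals were 1208, 596, 424 and 275 and its epithelial signals 632, 453, 141 and 131. Both cell types were lower in pairs 3 and 4, so the groups overlapped, while within each pair the erythroid capture was the higher. The difference was 0.82 ± 0.23 (adjusted p = 0.0397), higher in 4 of 4 pairs. The only tested probe set of St8sia4 is of a kind that can match several transcripts. Without such probe sets the gene had no test. A dimmer probe set was at -0.14 ± 0.59 in the fit with no filter (adjusted p = 0.935). The call ended under 10 of 16 alternatives: the adjusted p was 0.495 without the pair term, 0.0508 to 0.133 with 1 pair left out, 0.0505 with median centring, 0.0747 with no filter and 0.0783 with no variance trend.

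Starts of transcription of both genes are shown here because these are the 2 genes that were higher. The windows run from 250 bases before to 50 bases after a start in RefSeq, on GRCm38.p6, written 5' to 3' on the gene's strand. St3gal6 has 2 starts in that table and St8sia4 has 1. Capitals mark letters of a GATA motif (the letters AGATAA and also AGATAG, and likewise TGATAA and also TGATAG, on either strand) or of a CACC motif (CCNCNCCC, on either strand), sequence patterns of the kind that Gata1 and Klf1 recognise.
St3gal6, chr16:58524204-58524503, minus strand: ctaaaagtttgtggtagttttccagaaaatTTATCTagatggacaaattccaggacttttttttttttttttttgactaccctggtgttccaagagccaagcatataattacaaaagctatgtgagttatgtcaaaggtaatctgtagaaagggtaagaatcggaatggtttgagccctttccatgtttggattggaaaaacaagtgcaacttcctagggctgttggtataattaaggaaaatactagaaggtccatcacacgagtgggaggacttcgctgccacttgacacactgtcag
St3gal6, chr16:58523377-58523676, minus strand: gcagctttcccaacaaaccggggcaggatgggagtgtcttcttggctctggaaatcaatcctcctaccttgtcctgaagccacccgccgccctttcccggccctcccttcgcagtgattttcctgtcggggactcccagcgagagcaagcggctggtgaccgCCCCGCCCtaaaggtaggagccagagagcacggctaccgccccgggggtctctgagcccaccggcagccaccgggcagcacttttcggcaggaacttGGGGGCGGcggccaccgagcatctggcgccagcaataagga
St8sia4, chr1:95667545-95667844, minus strand: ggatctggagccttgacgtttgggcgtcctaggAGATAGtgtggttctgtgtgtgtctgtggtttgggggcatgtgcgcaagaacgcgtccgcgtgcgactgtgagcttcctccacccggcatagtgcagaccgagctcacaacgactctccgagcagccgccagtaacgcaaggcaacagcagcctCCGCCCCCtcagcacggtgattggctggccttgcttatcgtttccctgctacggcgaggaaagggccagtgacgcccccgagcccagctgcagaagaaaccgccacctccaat

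The first St3gal6 window held 1 GATA motif on the reverse strand, beginning at base -220 from the start, and the St8sia4 window held AGATAG at base -217. The CACC letters stood in the other St3gal6 window and in that of St8sia4. Over all 32851 windows of the table, 29.8% held a GATA motif and 49.5% a CACC motif. A match is only a description of the letters.

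St3gal5, the enzyme that makes the ganglioside GM3 from lactosylceramide, lay just outside the threshold. Its brighter probe set gave 739, 646, 658 and 797 in the erythroid captures and 517, 625, 145 and 292 in the epithelial ones. The groups did not overlap, yet in pair 2 the 2 signals were close. The difference was 0.95 ± 0.30 (adjusted p = 0.0623), and its mean was 0.26 over pairs 1 and 2 and 1.65 over pairs 3 and 4. The gene passed on the deposited scale (0.0483), after centring at the 75th percentile (0.0458), with a stricter filter (0.0458) and without replicate 2 (0.0365). It did not with median centring (0.0593) or with no variance trend (0.147), and the value was 0.60 without replicate 3 (0.226) and 0.84 without replicate 4 (0.241). A dimmer probe set of St3gal5 was not tested in the main fit, with signals of 162, 128, 75.2 and 105 against 15.5, 26.2, 2.76 and 2.72. It lay above background on 3 erythroid and 0 epithelial arrays, so the size of its difference is uncertain. In the fit with no filter it was called higher (adjusted p = 0.0109), while the brighter probe set was not (0.0924).

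St6gal1, which adds sialic acid to the galactose of N-glycans, behaved differently in the 2 sets of pairs. Its erythroid signals were 589, 1042, 846 and 764, and its epithelial signals 801, 844, 187 and 187. The erythroid level stayed within that range in all pairs, and the epithelial level was far lower in pairs 3 and 4 than in pairs 1 and 2. The difference was 0.91 ± 0.38 (adjusted p = 0.132), made up of -0.07 over pairs 1 and 2 and 1.90 over pairs 3 and 4, and the test of that change between the sets passed (limma, adjusted p of the interaction 0.0242). Without replicate 1 the gene was at 1.39 and passed (0.0236), and it was at 0.53 without replicate 3 and 0.64 without replicate 4, where it did not pass. A dimmer tested probe set gave -0.01 ± 0.41 (adjusted p = 0.993), with -0.26 over pairs 1 and 2 and 0.25 over pairs 3 and 4. There the test between the sets did not pass (limma, adjusted p of the interaction 0.867).

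St3gal2, which acts on O-glycans and gangliosides, had a like course, with signals of 221, 178, 187 and 236 in erythroid and 159, 242, 55.4 and 23.9 in epithelial captures. The difference was 0.92 ± 0.45 (adjusted p = 0.199), at -0.01 and 1.85 in the 2 sets, and the test between the sets did not pass (0.262). Without replicate 4 the value was 0.43. St8sia5, a ganglioside sialyltransferase, was at 0.36 ± 0.42 (adjusted p = 0.609). St3gal1, which caps simple O-glycans, was at -0.14 ± 0.30 (adjusted p = 0.798).

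Of the 6 St6galnac genes, whose enzymes attach sialic acid to the N-acetylgalactosamine of O-glycans or gangliosides, 3 were tested and none passed, all with values below 0 on the probe set read (1 was lower at an unadjusted p under 0.05). The fit with no filter gave values of either sign for their dim probe sets, from -1.46 to 1.06, and called none of them. St6galnac2 was at -0.90 ± 0.40 (adjusted p = 0.166), and pair 1 went against the other 3: its signals were 312, 95.5, 143 and 80.0 in erythroid and 165, 320, 262 and 259 in epithelial captures. Without replicate 1 it was at -1.45 and passed (adjusted p = 0.0272). St6galnac3 was at -0.62 ± 0.46 (adjusted p = 0.412) and St6galnac6 at -0.33 ± 0.40 (adjusted p = 0.636).

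**Figure D3:**
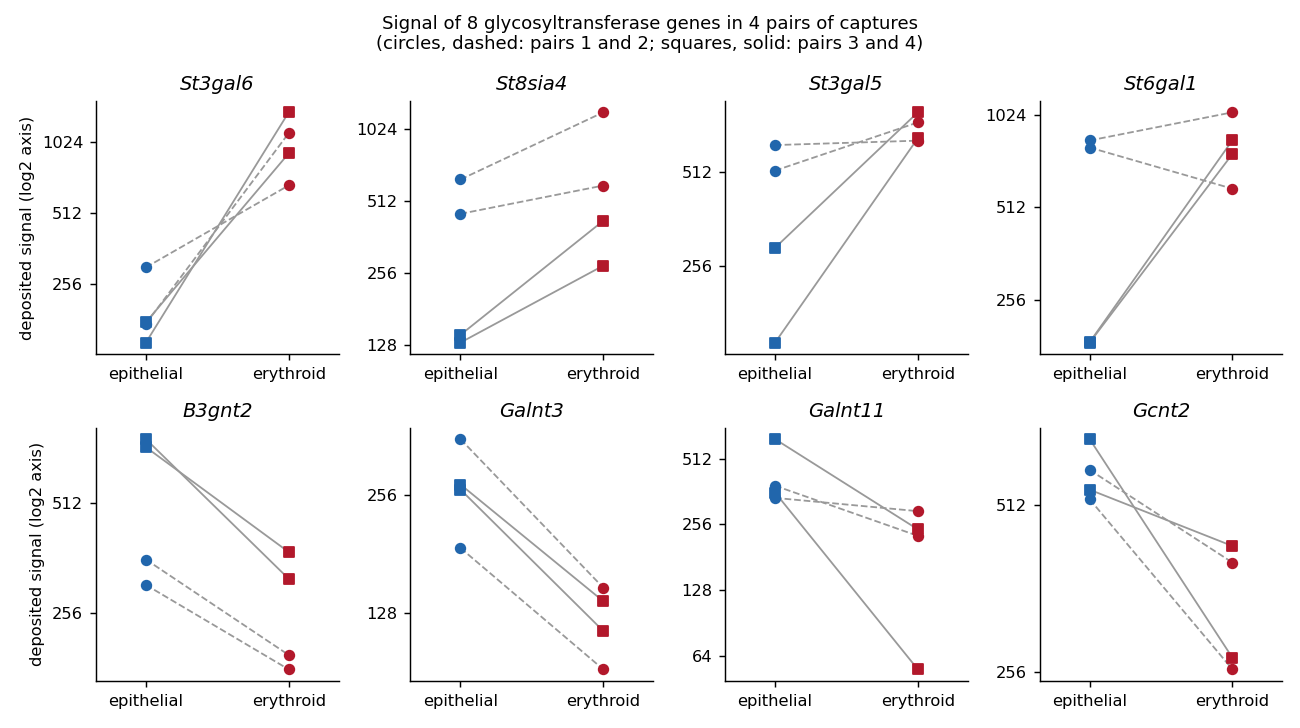
Deposited signal (log2 axis) of 8 genes in the epithelial and erythroid captures, with a line joining the samples of a pair; circles are pairs 1 and 2 and squares pairs 3 and 4. St3gal6 separates fully in the top row, St6gal1 slopes up steeply in pairs 3 and 4 and less, in opposite directions, in pairs 1 and 2, and every line of the bottom row, for the 4 genes called lower, slopes down.

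Among the 6 tested genes that start mucin-type O-glycans, 2 were lower, 0 higher and 4 did not pass. Galnt3, a starter enzyme known for its action on the hormone Fgf23, gave signals of 91.5, 148, 137 and 115 in the erythroid captures and 188, 357, 273 and 265 in the epithelial ones. The groups did not overlap, and the pairs were nearly equal, with differences of -1.29, -1.18, -1.17 and -1.24. The difference was -1.22 ± 0.28 (adjusted p = 0.0161), lower in 4 of 4 pairs. Its call ended without replicate 4 (adjusted p = 0.0895) with the value at -1.22. Its other 2 probe sets were too dim to be tested.

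Galnt11, known to modify megalin and related endocytic receptors, was lower by a like amount but unevenly. Its signals were 227, 295, 243 and 55.4 in erythroid and 386, 339, 631 and 359 in epithelial captures. The groups did not overlap, and the erythroid capture of pair 4 was far below the others. The difference was -1.22 ± 0.35 (adjusted p = 0.0444), from -0.05 in pair 2 to -2.46 in pair 4. Without replicate 4 it was at -0.81 (adjusted p = 0.215), and without replicate 1 or without replicate 3 the call also ended (0.065 and 0.143), as it did with no filter (0.0784), no variance trend (0.117) and no pair term (0.178).

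Galnt1 and Galnt2, starter enzymes found in most tissues, did not pass. Galnt1 gave signals of 2063, 2124, 1889 and 1793 in erythroid and 1882, 1956, 967 and 1308 in epithelial captures. The groups overlapped, and the difference was 0.46 ± 0.20 (adjusted p = 0.152), with 0.21 ± 0.28 on a dimmer probe set. Both probe sets were higher in 4 of 4 pairs, the brighter one at an unadjusted p under 0.05. That probe set was at 0.14 in pairs 1 and 2 alone, and at 0.78 in pairs 3 and 4 alone, where it passed (adjusted p = 0.0206). Galnt2 was at 0.24 ± 0.34 (adjusted p = 0.686). Galnt7 and Galnt4, which prefer chains that already carry a sugar, were at -0.20 ± 0.21 and -0.46 ± 0.33 (adjusted p = 0.556 and 0.382). Their dimmer probe sets were not tested in the main fit. With no filter, those of Galnt7 were at -1.36 and -0.52 and those of Galnt4 at 1.09 and -0.40, none called.

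Gcnt2, the branching enzyme behind the I blood group antigen, was lower in the erythroid captures. Its signals were 259, 403, 432 and 272 in erythroid and 524, 592, 545 and 672 in epithelial captures. The groups did not overlap, and pairs 1 and 4 differed most. The difference was -0.83 ± 0.24 (adjusted p = 0.0465), lower in 4 of 4 pairs, and no fit on 3 of the 4 pairs kept the call (adjusted p = 0.0543 to 0.233). It also ended with no filter (0.0786), no variance trend (0.0962) and no pair term (0.111). The gene has 3 starts in RefSeq, and 7 probe sets on the array, of which the other 6 lay under background on all 8 arrays. Which transcript form the bright probe set reads was not analysed here. Gcnt1, which makes the core branch of O-glycans, was at -0.08 ± 0.39 (adjusted p = 0.917), with -0.86 over pairs 1 and 2 against 0.70 over pairs 3 and 4 (interaction adjusted p = 0.292), and it lay above 0 on the deposited scale (0.13) and after centring at the 75th percentile (0.10).

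B3gnt2, the main enzyme that extends polylactosamine chains, was lower by a factor of 2.01. Its signals were 179, 196, 376 and 318 in the erythroid captures and 306, 359, 730 and 768 in the epithelial ones. Both cell types were higher in pairs 3 and 4, so the groups overlapped, while each pair showed a like difference of -0.96, -0.75, -1.02 and -1.29. The difference was -1.004 ± 0.22 (adjusted p = 0.0148), lower in 4 of 4 pairs. Leaving out the pair term (adjusted p = 0.134), replicate 3 (0.0518) or replicate 4 (0.111) ended the call. The only tested probe set of B3gnt2 is of a kind that can match several transcripts, and without such probe sets the gene had no test. A dimmer probe set was at 0.07 ± 0.52 in the fit with no filter (adjusted p = 0.968). B3gnt5, which starts the lacto series of glycolipids, was at -0.21 ± 0.23 (adjusted p = 0.59).

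Windows of Galnt3 and B3gnt2, the genes called lower with the smallest adjusted p, are shown for comparison with the genes that were higher, written as before.
Galnt3, chr2:66124744-66125043, minus strand: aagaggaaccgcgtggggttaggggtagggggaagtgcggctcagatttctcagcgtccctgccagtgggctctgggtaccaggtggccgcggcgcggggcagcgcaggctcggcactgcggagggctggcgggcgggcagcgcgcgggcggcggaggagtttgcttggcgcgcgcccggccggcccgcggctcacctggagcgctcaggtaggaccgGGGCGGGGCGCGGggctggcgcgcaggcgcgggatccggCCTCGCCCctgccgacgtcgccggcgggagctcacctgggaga
B3gnt2, chr11:22859686-22859985, minus strand: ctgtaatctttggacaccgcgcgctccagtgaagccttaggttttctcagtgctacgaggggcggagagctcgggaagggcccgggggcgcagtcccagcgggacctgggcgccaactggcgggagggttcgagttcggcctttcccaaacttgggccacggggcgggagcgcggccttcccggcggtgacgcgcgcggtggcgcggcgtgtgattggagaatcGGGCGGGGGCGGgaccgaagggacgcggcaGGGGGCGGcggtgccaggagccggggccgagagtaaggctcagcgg

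Neither window held the GATA letters, and both were rich in G and C (76.7% and 71.3%), with 3 CACC matches in each, some of them overlapping. Of the 4 genes called lower, 0 held a GATA motif in any of their windows, and of the 2 called higher both did. Of 13 tested genes with a window that did not pass, 30.8% did, beside 29.8% of all windows, where a gene can have more than 1 window. CACC letters did not set the groups apart. They stood in both genes called higher, in all 4 called lower and in 92.3% of those 13. Of 27 genes with a window but no test, 70.4% held them, beside 49.5% of all windows. A GTTAAT motif, part of the Hnf1 site, stood in 7.1% of all windows and, among the 6 genes called, in that of Gcnt2 at chr13:40859518-40859817. With 6 genes these counts are a description, and 46 of the 64 genes had a window in the table.

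Galactose is added to the chains by the B4galt and B3galt enzymes, and none of 4 tested genes of this role passed (2 were lower at an unadjusted p under 0.05). All 4 had values below 0. B4galt1, which adds galactose to N-glycans, gave 219, 243, 257 and 95.4 in erythroid and 196, 425, 412 and 340 in epithelial captures. The groups overlapped, since the epithelial capture of pair 1 was low, and the difference was -0.81 ± 0.30 (adjusted p = 0.0977). B4galt6, which makes lactosylceramide, was at -0.73 ± 0.26 (adjusted p = 0.0902), and at -0.27 ± 0.24 on a dimmer tested probe set. Without replicate 4, B4galt1 was at -0.50. For B4galt6 the dimmer tested probe set was the one read without replicate 3 (-0.17) and without replicate 4 (-0.32). These values therefore do not show how the -0.73 depends on a pair. Both genes passed in pairs 3 and 4 alone (adjusted p = 0.00907 and 0.0454). B4galt3 was at -0.34 ± 0.30 and B4galt7, which acts in the linker of proteoglycans, at -0.24 ± 0.39 (adjusted p = 0.484 and 0.722).

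None of the 3 tested genes of N-glycan branching passed (1 was lower at an unadjusted p under 0.05). Mgat1, which opens the way from mannose-rich to complex N-glycans, was at -0.35 ± 0.21 (adjusted p = 0.299). Mgat2, which adds the next branch, gave 1267, 1684, 665 and 1150 in erythroid and 2074, 1851, 1349 and 1361 in epithelial captures. Each pair was lower in the erythroid capture, and the difference was -0.51 ± 0.21 (adjusted p = 0.127). A dimmer probe set of Mgat2 did not show it, at 0.05 ± 0.34 (adjusted p = 0.948). Mgat4b, which adds a further branch, was at -0.39 ± 0.24 (adjusted p = 0.315). The 2 tested fucosyltransferase genes did not pass either: Fut8, which adds fucose to the core of N-glycans, was at -0.17 ± 0.24 (adjusted p = 0.672) and Fut10 at 0.54 ± 0.38 (adjusted p = 0.388).

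The other 35 genes had no probe set at or above the array median on 4 of the 8 arrays, the rule for a test. Of these, 22 lay under the background level on all 8 arrays in each of their probe sets, among them the fucosyltransferases Fut1, Fut4, Fut7 and Fut9, which act in blood group H and Lewis antigens, the bisecting enzyme Mgat3, and Mgat5. Another 12 were above background on 1 to 4 arrays with their best probe set, and St3gal3, of the same family as St3gal6, on 5. Galnt10 was above background on 4 arrays, with signals of 87.9, 153, 379 and 162 in erythroid and 71.7, 83.3, 77.9 and 63.7 in epithelial captures. The groups did not overlap, but the epithelial values lay near the background, so no size is given. A dim probe set says little about whether a gene is expressed, and in the fit with no filter none of these 35 genes was called.

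Markers of other cell types of the yolk sac also differed between the captures. All 6 mesenchyme markers were measured, 5 were called higher in the erythroid captures, and their summed signal was 21693 to 41893 there and 5436 to 19261 in the epithelial captures. The ratio of the sums within pairs 1 to 4 was 1.20, 1.503, 4.99 and 5.21. For 5 megakaryocyte markers, 2 of 4 tested were higher, the sums were 4876 to 18254 and 1610 to 2598, and the ratios were 2.96, 1.88, 11.3 and 4.14. For 4 endothelial markers, 1 of 3 tested was higher, with sums of 670 to 1523 and 285 to 643. For 4 macrophage markers, 0 of 2 tested were called (1 was higher at an unadjusted p under 0.05), with sums of 843 to 1269 and 549 to 891. No marker was at 0. The part of these cell types in the sialyltransferase values was not tested. The ratios are linear, and the differences that follow are on the log2 scale. In pairs 1 to 4 they were 0.99, 2.88, 3.10 and 2.08 for St3gal6. For St8sia4 they were 0.84, 0.48, 1.33 and 0.65. Among sialyltransferases not called with values above 0, St3gal5 gave 0.39, 0.12, 2.00 and 1.30 and St6gal1 -0.50, 0.36, 2.06 and 1.74. St3gal2 gave 0.26, -0.28, 1.30 and 2.41, and St8sia5 0.22, 0.57, -0.48 and 1.14. The 4 tested sialyltransferases with values below 0 had other courses. St6galnac2 gave 0.74, -1.66, -1.04 and -1.63 and St6galnac3 -2.18, 0.51, -0.09 and -0.70. For St6galnac6 the values were 0.55, -0.70, -0.54 and -0.62, and for St3gal1 -0.46, 0.59, -0.33 and -0.35.

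The change in pairs 3 and 4 was larger than that in pairs 1 and 2 for 21 of the 29 genes (72.4%; 65.4% of all genes tested). The sign was the same in both sets for 23. Of the 35 tested probe sets, 1 passed the test between the sets, the brighter one of St6gal1, beside a background of 1.84%. An unadjusted p under 0.05 was found for 7, as for 13.4% of all probe sets tested. Galnt3 and Gcnt2 were alike in the 2 sets, at -1.24 and -1.20 and at -0.79 and -0.86. Galnt11 was at -0.48 and -1.96 (interaction adjusted p = 0.215).

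**Figure D4:**
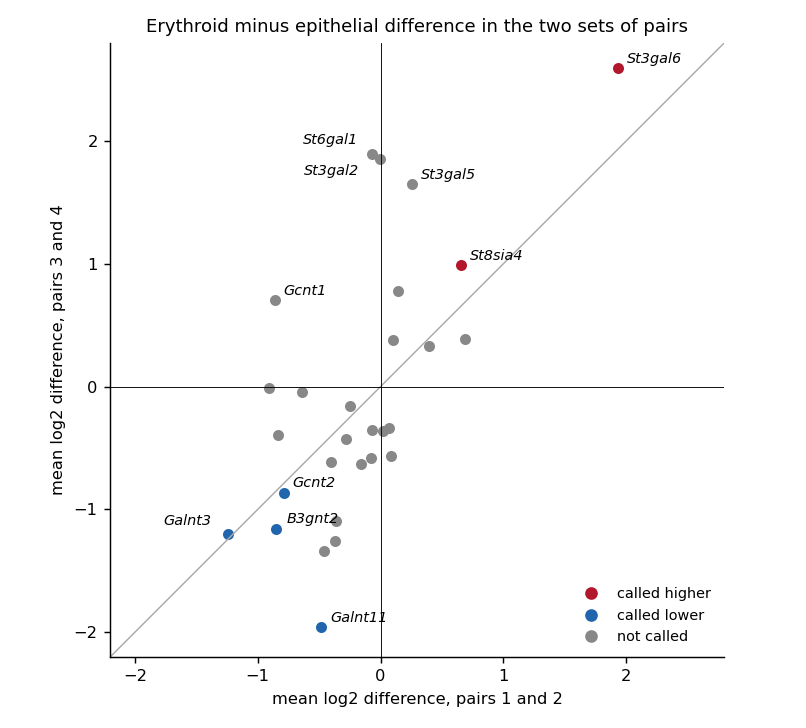
Mean log2 difference of the 29 tested genes in pairs 1 and 2 (horizontal axis) and in pairs 3 and 4 (vertical axis), with the line of equal difference; red and blue points were called. St6gal1, St3gal2 and St3gal5 lie near 0 on the horizontal axis and between 1.65 and 1.90 on the vertical one, and Galnt3 and Gcnt2 lie near the line.

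Other genes of glycosylation, from a list of 85 for sugar activation, transport into the Golgi, mannosidases, further transferases and Golgi structure, gave 55 tested genes with 1 higher and 5 lower (median -0.18). That is below the 14.9% background. Nanp, the phosphatase in the synthesis of sialic acid, was the gene that was higher, by 0.66 ± 0.19 (adjusted p = 0.0423), with signals of 1524, 1409, 1675 and 1666 in erythroid and 1155, 921, 1143 and 887 in epithelial captures. The groups did not overlap. With arrays centred on their medians Nanp was at 0.43 and did not pass (adjusted p = 0.257), nor did it with any pair left out (0.0583 to 0.201). Npl, which breaks sialic acid down, was lower by 1.20 on the log2 scale (-1.20 ± 0.19, adjusted p = 0.00355), at 1975, 1992, 1948 and 2663 against 3464, 3764, 7287 and 6262. The other 3 tested genes of sialic acid supply did not pass. Nans was at -0.49 ± 0.22 (adjusted p = 0.163), lower at an unadjusted p under 0.05. Gne was at -0.02 ± 0.24 and Cmas at 0.31 ± 0.18 (adjusted p = 0.975 and 0.275).

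B4galnt2, which completes the Sda antigen, gave the largest difference of that list, -1.63 ± 0.23 (adjusted p = 0.00222). Its signals were 292, 468, 164 and 389 in erythroid and 1081, 1143, 653 and 999.7 in epithelial captures, with no overlap. B3galnt1, the globoside synthase, was at -1.06 ± 0.23 (adjusted p = 0.0122), also with no overlap, and its call ended without replicate 3 (0.0589). The nucleotide sugar transporter gene Slc35b4 was at -0.92 ± 0.26 (adjusted p = 0.0391), and its call ended without replicate 1 (0.126), without replicate 3 (0.0533) and without replicate 4 (0.197). Pofut2, which adds O-fucose to thrombospondin repeats, was at -0.55 ± 0.14 (adjusted p = 0.0301), and its call ended with any pair left out (0.0516 to 0.107) and without the pair term (0.245). Of 7 tested genes of Golgi structure and 4 of the COG complex, which tethers Golgi vesicles, 0 were called in either direction, and 0 had an unadjusted p under 0.05.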

How the data were processed

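RNA of 8 laser captures, 4 erythroid and 4 epithelial, was measured on 1 Affymetrix mouse array each. The authors deposited 1 intensity per probe set and array on a linear scale (MAS5 signal). GCOS, MAS5 and affy are the tools listed, without version, per the submitters' processing notes. In that table the mean after trimming 2% at each end was 500.0 on every array.

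Of 22690 probe sets, 64 controls were left out. Of the others, 20380 were annotated to 1 gene, 691 to several and 1555 to none here, and symbols were updated through gene identifiers for 20351. No member probe set was annotated to several genes. After adding 8.14, the 10th percentile of all values, log2 values were quantile normalised. Testing required a value at or above the array median on at least 4 of 8 arrays. limma 3.58.1 in R 4.3.3 fitted pair and cell type with a variance trend, and its two-sided p-values were adjusted (Benjamini-Hochberg) across every probe set in the fit. A further fit added a term for cell type by pair set. The pairing comes from the labels' protocols, and the deviations of paired samples from their group means correlated at 0.437, 0.343, 0.315 and 0.535. Each gene is represented by the brightest of its tested probe sets. A signal counted as above background when it exceeded that array's 95th percentile over 117 probe sets of keratin-associated protein, beta-defensin and odour, pheromone or taste receptor genes. Promoter windows are RefSeq's on GRCm38.p6. The procedure was tested on simulated data.

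All called members were to be named, with members not called from each role and every member with no test by name or count. The members, lists, motifs and tests were chosen with earlier results of these data known. Alternatives changed the scaling, the offset, the filter, the variance trend, the pair term, the probe set read and the pairs used.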

Additional observations from a re-analysis of the deposited data

Results flagged for a closer look

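Among the 29 tested genes, 58 groups of 4 samples were checked for a sample far from the others, of which chance flags about 1 in 20, and 4 were flagged. The gap to the nearest sample, as a share of the group's range on the normalised log2 scale, was 0.841 for B4galt1 in the erythroid capture of pair 4, the lowest of its group. It was 0.837 for B4galt6 in the epithelial capture of pair 3, also the lowest, 0.935 for Fut10 in the epithelial capture of pair 2, the highest, and 0.913 for St8sia5 in the epithelial capture of pair 4, the lowest. None of these 4 genes was called.

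On its brighter probe set, St6gal1 differed between the cell types by -0.07 over pairs 1 and 2 and by 1.90 over pairs 3 and 4. The difference between the sets passed its test (limma interaction, adjusted p = 0.0242). On the dimmer tested probe set it did not (-0.26 and 0.25, adjusted p = 0.867). The sets also differ in the 3' to 5' ratio of the Gapdh control (38.7 to 44.4 and 7.0 to 17.4) and in the ratio of mesenchyme markers between captures (1.20 and 1.503, against 4.99 and 5.21). Their part in this difference was not tested.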

How the results depend on the processing

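Over 573 combinations of 35 named genes and an alternative, 488 kept direction and side of the threshold, 60 lost a call, 13 gained one and 12 changed sign, all 12 in 8 genes that were not called. In pairs 1 and 2 alone, B4galt7 (0.081), Fut8 (0.017), St3gal1 (0.065), St3gal2 (-0.0083) and St6gal1 (-0.070) changed sign, and Gcnt1 did so on the deposited scale (0.13), with 75th percentile centring (0.10) and in pairs 3 and 4 alone (0.70). With 1 pair left out in turn, B3gnt5 ran from -0.34 to 0.0094, B4galt7 from -0.59 to 0.022, Galnt2 from -0.028 to 0.60 and Gcnt1 from -0.36 to 0.37. Centring on the medians moved the median of all probe sets tested to -0.11, from 0.02.

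The counts of limma calls moved as follows, given as higher and lower; the cause was not tested. Over all probe sets (709 and 881), median centring gave 455 higher, no variance trend 179 and 339, no replicate block 160 and 285, pairs 1 and 2 alone 543 lower, and pairs 3 and 4 alone 1402 and 1457. Of the glycosyltransferase probe sets (3 and 4), no variance trend gave 1 and 2, no filter and the stricter filter 2 lower each, no replicate block 1 lower, pairs 1 and 2 alone 1 and 0, and pairs 3 and 4 alone 6 and 7. Of the genes (2 and 4), the higher count was 1 with median centring, no filter, no variance trend, no replicate block, pairs 1 and 2 alone and leaving out the x, s and a probe sets, and 5 in pairs 3 and 4 alone. The lower count was 2 with no filter, the stricter filter and no variance trend, 1 with no replicate block, 0 in pairs 1 and 2 alone and 7 in pairs 3 and 4 alone. Of the other glycosylation genes (1 and 5), the higher count was 0 with median or 75th percentile centring, no variance trend, no replicate block and pairs 1 and 2 alone, and 3 in pairs 3 and 4 alone, and the lower count 1 with no variance trend, 3 with no replicate block and 13 in pairs 3 and 4 alone. With 1 pair left out in turn, the counts ran from 202 to 690 higher and 332 to 829 lower over all probe sets, 1 to 3 and 0 to 3 for the glycosyltransferase probe sets, 1 to 2 and 0 to 3 for the genes, and 0 to 2 and 2 to 5 for the other glycosylation genes. The fits on 2 pairs have 1 residual degree of freedom a probe set.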
